A study of Macaca mulatta with 20 samples.

Results

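The 9 immediate-early genes FOS, FOSB, JUN, JUNB, ATF3, EGR1, EGR2, IER2 and IER3 were followed in the blood of rhesus macaques before and after irradiation of the thorax. They were chosen by name, with earlier results of these data known. All 9 of the 9 passed the filter, among 15929 gene names with a probe well above background on at least 5 of 20 arrays. The array carried 13 probes that its design named for them, of 34127 probes in all. Of these, 12 passed the filter, as did 19961 of all probes.

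The animals were male rhesus macaques (Macaca mulatta) of Chinese origin, and the labels give no age. Whole blood was drawn from 8 animals exposed to 10 Gy of X-rays over the thorax, 3 days before irradiation (pre-irradiation) and on days 2, 5 and 30 after it. The animals belonged to the arm of a larger study that received no mitigating drug. RNA stabilized in the collection tube was depleted of globin transcripts and hybridized to human whole-genome arrays in a single colour, with 5 arrays per group. No sham-irradiated animals were among the arrays, so a difference from pre-irradiation cannot be told apart from a difference between sampling days. The probes were designed on human transcripts, so a probe's signal also depends on how well the macaque transcript matches it. For 1 sample the RNA of 2 animals was pooled, and which array held it is not given in the sources used here.

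Immediate-early genes are the genes that a cell transcribes first after a stimulus, without making new protein, when MAP kinases activate transcription factors such as SRF, ELK1 and CREB1 that already sit on their promoters. FOS and JUN proteins pair through leucine zippers to form the transcription factor AP-1, and EGR1 and EGR2 are zinc finger factors of the same early wave. The transcripts are short-lived, and white blood cells make them in response to cytokines, bacterial products, adhesion and handling.

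The probe of JUNB is shown whole because this gene came nearest to the test's threshold. It is 60 bases long, lies in the coding sequence of JUNB and is given 5′ to 3′ in the sense of the mRNA, as are the sequences after it. By the array files its position is chr19:12902998-12903057 on the plus strand of hg19.

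JUNB: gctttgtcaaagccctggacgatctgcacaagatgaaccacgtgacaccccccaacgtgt

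The 4 probes named for ATF3 are shown side by side because their signals did not move together. A_33_P3214105 and A_24_P33895 lie in coding sequence and are printed whole. Of A_33_P3214096 and of A_23_P34915, which had the highest mean signal of the 4, the first 30 bases are printed. On the plus strand of hg19 they lie at chr1:212788502-212788561, chr1:212792837-212792896, chr1:212792519-212792578 and chr1:212793856-212793915 in this order.

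ATF3 A_33_P3214105: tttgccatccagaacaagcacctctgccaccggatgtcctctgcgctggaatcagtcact
ATF3 A_24_P33895: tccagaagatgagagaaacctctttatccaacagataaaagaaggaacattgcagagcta
ATF3 A_33_P3214096: aagaagagggtctgcattttcctaaaccca
ATF3 A_23_P34915: gatgtcaatagcattgtttttgtcatgtag

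The probes of JUN and FOSB shared a run of 13 bases, marked in capitals in the 30 bases around it. This was the longest run shared by any of the 78 pairs of the 13 probes, the next being 9 bases, and no other of the 34127 probes on the array held it. The probe of JUN lies on the minus strand at chr1:59246511-59246570, and that of FOSB on the plus strand at chr19:45978205-45978264.

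JUN: gaatcttcTCTTTGACAATTCctagataaa
FOSB: aatctgtaTCTTTGACAATTCtgggtgcga

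The FOS probe lies on the plus strand at chr14:75748214-75748273, and its first 30 bases are shown with a piece of the IER3 probe (minus strand, chr6:30711312-30711371) that holds ATTTA, the core of AU-rich elements of short-lived mRNAs. Searched in the sense of the mRNA only, the letters ATTTA occurred in 1 of the 13 probes, and in 7.57% of all probes on the array, so the printed match is a description only.

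FOS: agagggttcctgtagacctagggaggacct
IER3: aggtctcttggtATTTAttgagctttgtgg

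Signals are given as log2 of the processed intensity minus the 75th percentile of the array, so that 0 is the level of that percentile. Levels are compared between arrays for 1 probe, never between probes. Differences are means over the 5 pairs of arrays with the same replicate number, tested with limma across all 19961 probes, and a probe was called at p under 0.005 with a Benjamini-Hochberg FDR under 10%. Each gene is described by its probe of highest mean signal unless another is named. Each slide held 1 array of every group, and each group always lay at the same position on its slide, so that position and group cannot be told apart.

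The arrays had between 50.9% and 67.3% of their spots well above background, with the highest share on day 5 replicate 3, and correlated with each other at 0.926 to 0.989. Markers of blood cells differed between the groups. At day 2 the median log2 change was 0.92 over 7 neutrophil markers, 0.62 over 6 monocyte markers and 1.49 over 7 platelet markers, against -0.46 over 8 T cell, -1.36 over 8 NK cell and -0.55 over 6 B cell markers, while the median of all probes was -0.02. At days 5 and 30 the medians were 0.61 and 0.77 for neutrophil, 0.38 and 0.65 for monocyte and -0.49 and -0.46 for B cell markers. They were 0.45 and -0.11 for platelet, -0.75 and 0.06 for NK cell and -0.27 and -0.29 for T cell markers. Over 8 erythroid markers the medians were -0.17, 0.20 and -0.70 at days 2, 5 and 30. Over 5 basophil and eosinophil markers they were 0.05, -0.17 and -0.31. The part of these shifts in the members' values was not tested. In whole blood, more cells of a type and more RNA per cell cannot be told apart.

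No member probe was called in any of the 6 comparisons between groups by limma. None was called when the paired differences of every probe were tested singly, but the share of all probes for that test is not given. The single tests are therefore no separate evidence about the members. Over all probes limma called 0.0551% from pre-irradiation to day 2, 0% to day 5, 0.0200% to day 30, 0.0551% from day 2 to day 30, and 0% in the other comparisons. At an unadjusted p under 0.05, 2 of the 12 member probes were higher at day 2, against 8.91% of all probes in that direction, and none was lower (5.92% of all probes). The count was also 2 higher and none lower at day 5 (7.20% of all probes higher, 4.15% lower) and at day 30 (8.58% higher, 8.97% lower). Each member's arrays overlapped between pre-irradiation and every later day, while 0.581% of all probes lay higher without overlap and 0.967% lower at day 2, 0.311% and 0.301% at day 5, and 1.09% and 0.992% at day 30. In every pair, 1 member probe was higher at day 2 (6.50% of all probes), none at day 5 (7.00%) and 1 at day 30 (8.36%).

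In the main analysis, the changes from pre-irradiation of the 9 genes were above 0 for 8 genes at day 2, with a median log2 change of 0.28, for 5 genes at day 5, with a median of 0.16, and for all 9 at day 30, with a median of 0.39. With other scalings 7 genes were above 0 at day 2 after quantile normalization, all 9 after median scaling, 6 at day 5 and 8 at day 30 after normexp background correction. These counts and medians also rested on single replicates. At day 30, 6 genes were above 0 without replicate 5 and 7 without replicate 1, where the median was 0.20. At day 2 the median was 0.18 without replicate 3 and 0.58 without replicate 2, and at day 5 it lay between 0.03 and 0.33 when 1 replicate was left out. Over all probes the share above 0 was 47.0% at day 2, 53.5% at day 5 and 50.6% at day 30. These comparisons share the pre-irradiation arrays.

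**Figure D1:**
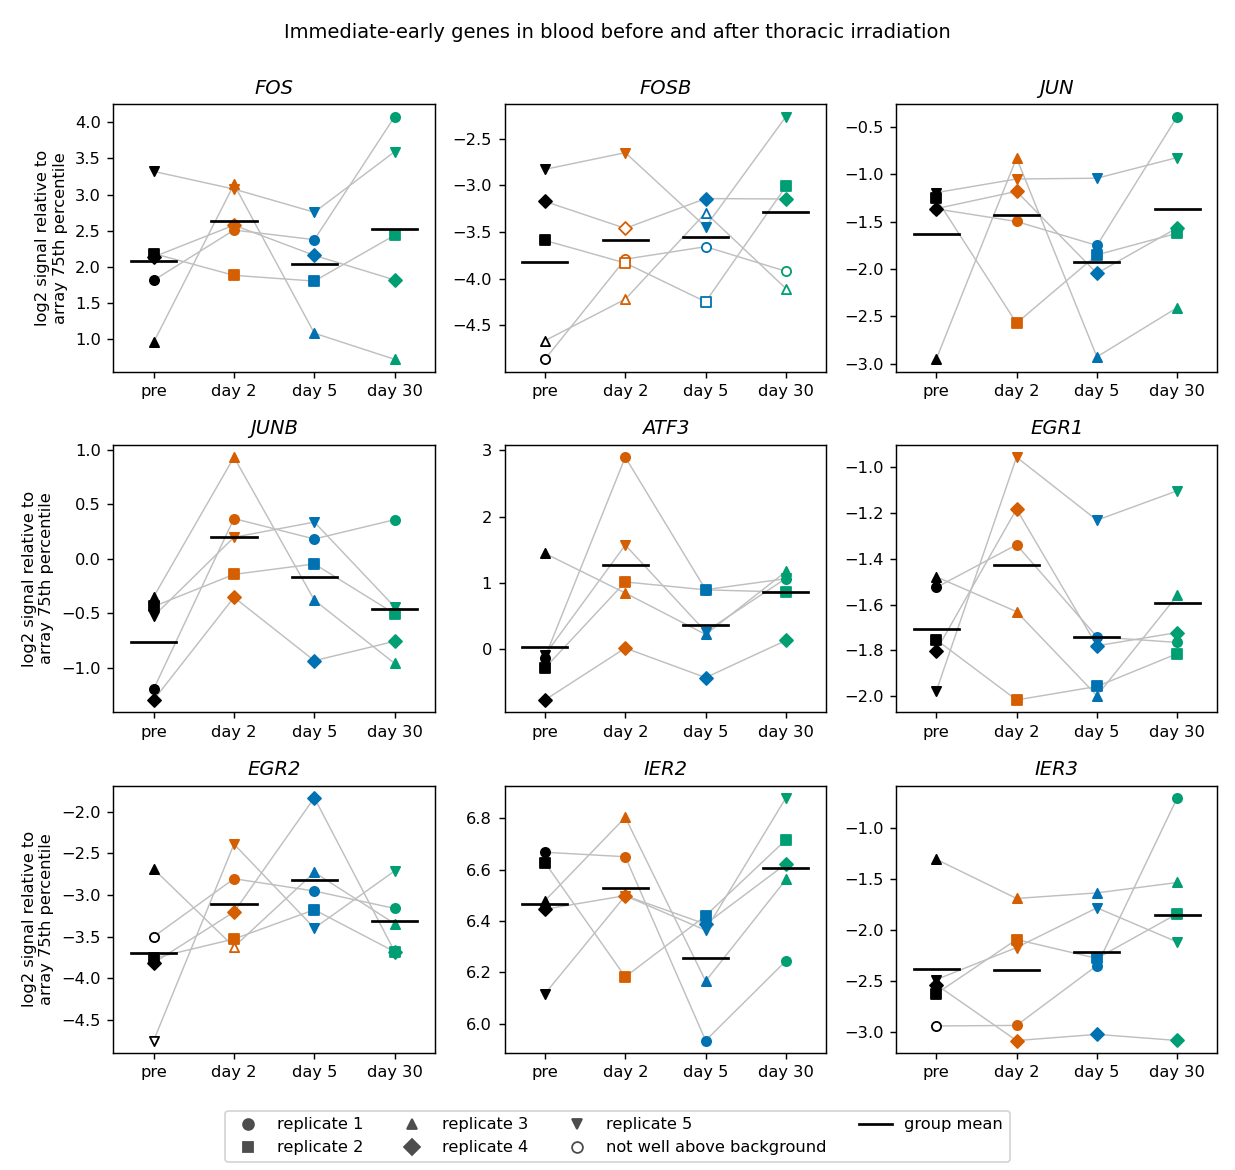
Signal of the 9 genes (vertical axes, log2 relative to the 75th percentile of the array) on the 5 arrays of each group (horizontal axes), with a symbol per replicate number, grey lines joining arrays of the same number, black bars at group means, and open symbols where the spot was not well above background. JUNB was higher at day 2 in 5 of 5 pairs, and the groups overlapped for every gene.

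JUNB, a partner of FOS proteins in AP-1, had the smallest p-value of the members at day 2. Its levels on replicates 1 to 5 were -1.20, -0.44, -0.35, -1.30 and -0.53 before irradiation and 0.37, -0.14, 0.93, -0.35 and 0.20 at day 2. Every array of day 2 was above its pair, but the highest pre-irradiation array lay level with the lowest of day 2. The change was 0.96 on the log2 scale, or 1.95-fold (SE 0.21, 95% interval 0.49 to 1.44, n = 5 pairs), with a limma p of 0.0016 and an adjusted p of 0.157. The adjusted p missed the threshold, and it passed under 4 of 20 alternatives, for example at 0.0634 without replicate 2. Over all probes, the 20 alternatives together ranged from 0 to 681 called, against 11 in the main analysis. The counts for the 4 that called JUNB are not given.

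At day 5 the JUNB levels were 0.18, -0.05, -0.38, -0.94 and 0.33, higher than before irradiation in 4 of 5 pairs. The mean change was 0.59 (SE 0.22, limma adjusted p = 0.390). At day 30 the levels were 0.36, -0.51, -0.96, -0.76 and -0.44, all lower than at day 2 in their pair, which held for 6.29% of all probes. From pre-irradiation to day 30 the log2 change of 0.30 (SE 0.29, limma adjusted p = 0.625) was within the spread between pairs and turned its sign without replicate 1. From day 2 to day 30 the change was -0.66 (SE 0.27, limma adjusted p = 0.377), and it was -0.35 without replicate 3 and -0.33 with normexp.

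Paired by slide instead of replicate number, the JUNB differences at day 2 ran from 0.21 to 1.66, above 0 on 5 of 5 slides. This pairs the same arrays anew, as do the slide values of the genes below, and is no separate evidence. The share of all probes higher on every slide is not given. The level of JUNB moved with markers of myeloid cells. Over the 20 arrays JUNB correlated at r = 0.75 with the mean of 7 neutrophil markers and at r = 0.75 with that of 6 monocyte markers (rho and the values within groups follow in the account of correlations). The mean of the neutrophil markers ranged from 0.29 to 1.80 before irradiation and from 1.03 to 2.78 at day 2, and that of the monocyte markers from 3.08 to 4.20 and from 3.98 to 4.79. At day 2, 6 of 7 neutrophil markers and 6 of 6 monocyte markers were above 0 in their mean change, among them CSF3R at 1.01, CXCR2 at 1.07 and ALPL at 0.02, while CMTM2 was at -0.31. Of the listed markers, 7 of 8 for neutrophils and 6 of 8 for monocytes had a probe that was tested. The part of these cells in the JUNB difference was not tested.

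FOS, the other arm of AP-1, had the widest spread among the lead probes. Its levels on replicates 1 to 5 were 1.82, 2.19, 0.96, 2.14 and 3.32 before irradiation, 2.51, 1.88, 3.14, 2.58 and 3.08 at day 2, and 2.38, 1.80, 1.08, 2.16 and 2.76 at day 5. At day 30 they ran from 0.72 on replicate 3 to 4.08 on replicate 1, a wider range than in any other group. Replicate 3 was the lowest array before irradiation, at day 5 and at day 30, and the highest at day 2.

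The mean FOS changes from pre-irradiation were 0.55 at day 2 (SE 0.35, limma adjusted p = 0.487), -0.05 at day 5 (SE 0.19, adjusted p = 0.946) and 0.45 at day 30 (SE 0.36, adjusted p = 0.544). None exceeded the spread between pairs. Without replicate 3 the day 2 change was 0.15, with normexp it was 0.14, and without replicate 1 the day 30 change turned its sign. By slide, the day 2 differences ran from -0.18 to 0.92 and were above 0 on 4 of 5 slides. FOS was lower at day 5 than at day 2 in 5 of 5 pairs, by 0.60 on average (SE 0.30, limma adjusted p = 0.992), but replicate 3 stood at -2.06 and the mean without it was -0.24. Being lower in every pair of that comparison held for 1.88% of all probes.

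JUN, whose protein can pair with itself or with FOS, had levels of -1.37, -1.26, -2.95, -1.36 and -1.19 before irradiation and of -1.50, -2.57, -0.83, -1.18 and -1.05 at day 2. The low array before irradiation was replicate 3, the same as for FOS. At day 5 the levels were -1.75, -1.85, -2.93, -2.04 and -1.04, and at day 30 they were -0.39, -1.62, -2.41, -1.57 and -0.82. The mean changes from pre-irradiation were 0.20, -0.30 and 0.26 at days 2, 5 and 30, with limma adjusted p-values of 0.848, 0.558 and 0.578. The day 2 value turned to -0.28 without replicate 3, and the day 30 value was 0.09 without replicate 1. By slide, the day 2 differences ran only from -0.14 to 0.38, above 0 on 4 of 5 slides. JUN was higher at day 30 than at day 5 in 5 of 5 pairs (4.69% of all probes), by 0.56 (SE 0.21, limma adjusted p = 0.587), or 0.36 without replicate 1. All of these lay short of the threshold.

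FOSB, a FOS relative whose mRNA accumulates in activated cells, was near the limit of detection, with its spot well above background on 3, 1, 2 and 3 of 5 arrays before irradiation and at days 2, 5 and 30. Its levels were -4.87, -3.59, -4.67, -3.17 and -2.83 before irradiation and -3.92, -3.01, -4.11, -3.15 and -2.26 at day 30. Day 30 was above its pair on all 5, by as little as 0.03. The mean change was 0.54 (SE 0.18, limma adjusted p = 0.210). At days 2 and 5 the changes were 0.23 and 0.27, each higher in 3 of 5 pairs, and the day 2 value was 0.02 without replicate 1 and the day 5 value -0.01 without replicate 3. By slide, FOSB was higher at day 30 on 4 of 5 slides.

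**Figure D2:**
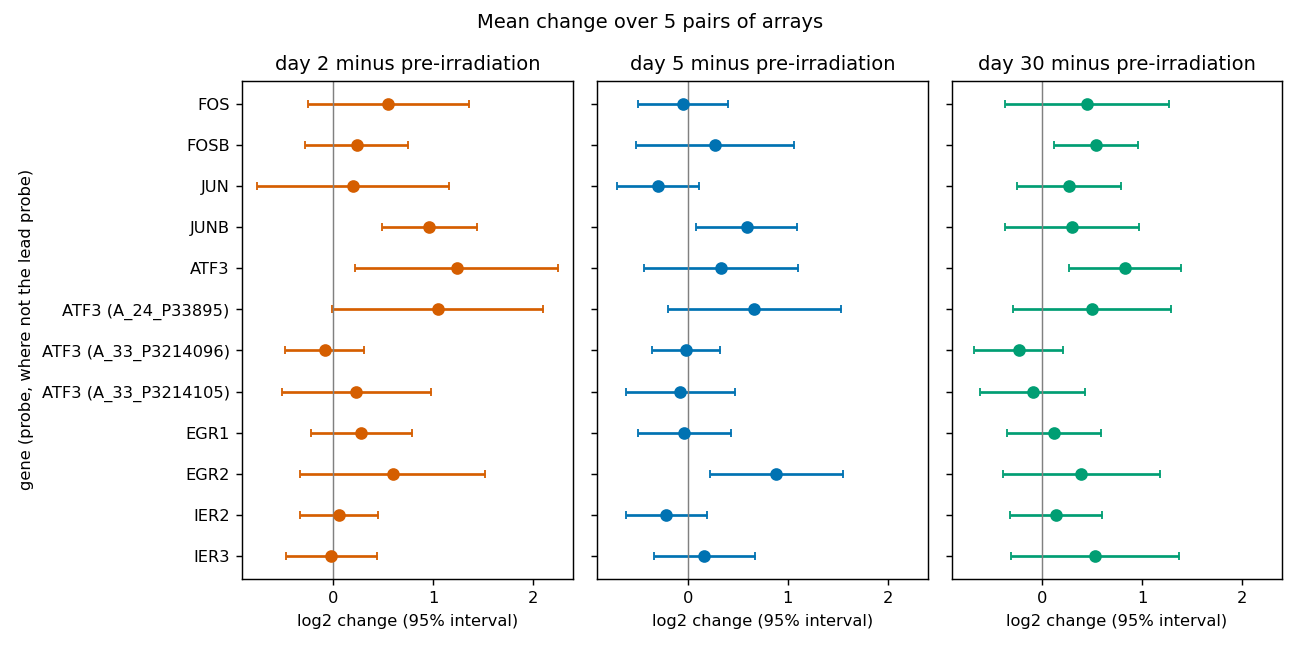
Mean log2 change from pre-irradiation (horizontal axes) of the 12 member probes (vertical axis) at days 2, 5 and 30, over 5 pairs of arrays. Bars are 95% intervals of limma without correction for the number of probes, and those that exclude 0 belong to JUNB and ATF3 at day 2, JUNB and EGR2 at day 5, and ATF3 and FOSB at day 30.

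ATF3, a stress-induced member of the ATF and CREB family that can also pair with JUN proteins, had the largest change of the members at day 2 by its lead probe A_23_P34915. The levels on replicates 1 to 5 were -0.13, -0.29, 1.45, -0.77 and -0.09 before irradiation and 2.90, 1.01, 0.85, 0.02 and 1.57 at day 2. Replicate 3 alone was higher before irradiation than at day 2, and the groups overlapped through it. The change was 1.23, or 2.35-fold (SE 0.44, 95% interval 0.22 to 2.25, n = 5 pairs), with a limma p of 0.023 and an adjusted p of 0.266. It was 0.79 without replicate 1, 1.69 without replicate 3 and 0.65 with normexp background correction.

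The ATF3 levels at day 5 were 0.90, 0.90, 0.22, -0.43 and 0.26, lower than at day 2 in 5 of 5 pairs. That difference was -0.90 (SE 0.28, limma adjusted p = 0.992), or -0.41 with normexp, and from pre-irradiation the change was 0.33 (SE 0.33, adjusted p = 0.728). At day 30 the levels were 1.06, 0.86, 1.17, 0.13 and 1.07. They exceeded pre-irradiation in 4 of 5 pairs, by 0.82 on average (SE 0.25, limma adjusted p = 0.173). None of these passed the threshold.

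The other ATF3 probes did not all follow the lead probe. At day 2 the coding probe A_24_P33895 stood at 1.05 (SE 0.46, limma adjusted p = 0.339), higher in 4 of 5 pairs, but it was well above background on 1 array before irradiation and 3 at day 2. A_33_P3214105 stood at 0.23 and A_33_P3214096 at -0.08. Over the 20 arrays the lead probe correlated at r = 0.86 with A_24_P33895 and 0.75 with A_33_P3214105, but at 0.05 with A_33_P3214096. Before irradiation all 4 probes were at their highest on replicate 3. At day 30 the lead probe was at 0.82, A_24_P33895 at 0.50, A_33_P3214105 at -0.10 and A_33_P3214096 at -0.24. The lead and A_24_P33895 stood above 0 at all 3 days and A_33_P3214096 below 0, though the last turned its sign under normexp and without single replicates at days 2 and 5, so the ATF3 values depend on the probe.

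**Figure D3:**
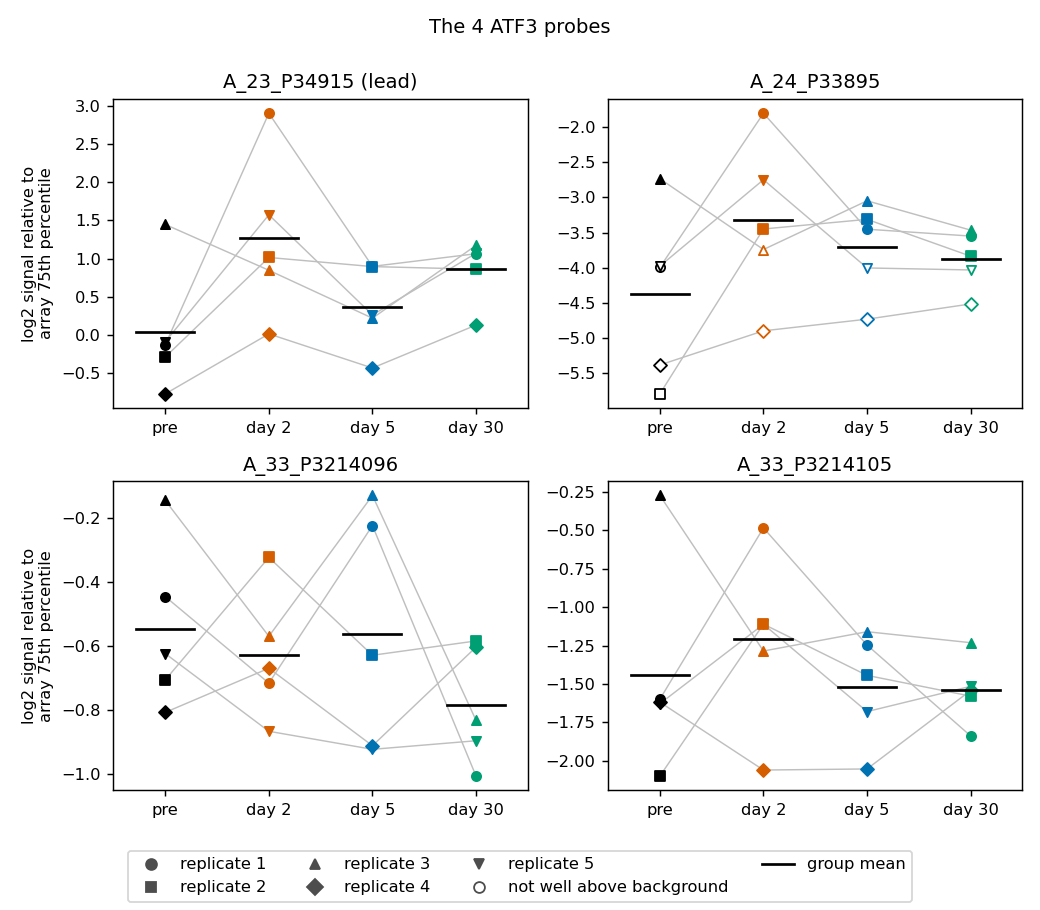
Signal of the 4 ATF3 probes (vertical axes, log2 relative to the 75th percentile of the array) on the 5 arrays of each group (horizontal axes), drawn as for the 9 genes. A_23_P34915 and A_24_P33895 run alike at r = 0.86, while A_33_P3214096 spans less than 1 log2 unit and runs at r = 0.05 to the lead probe.

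The EGR factors are zinc finger proteins that bind GC-rich promoter sites. EGR1 was well above background on all 20 arrays, with levels of -1.71 ± 0.21 before irradiation, -1.43 ± 0.41 at day 2, -1.74 ± 0.31 at day 5 and -1.59 ± 0.29 at day 30 (SD, n = 5). Its mean changes were 0.28, -0.03 and 0.11, with limma adjusted p-values of 0.569, 0.965 and 0.804. Without replicate 5 the day 2 value was 0.10 and the day 30 value -0.08. The groups overlapped throughout, and the 95% interval of the day 2 change ran from -0.22 to 0.79.

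The EGR2 spot was well above background on 3, 4, 5 and 5 of 5 arrays in the order of sampling. Its levels on replicates 1 to 5 were -3.50, -3.76, -2.69, -3.82 and -4.75 before irradiation and -2.95, -3.18, -2.73, -1.83 and -3.40 at day 5. Replicate 3 differed by -0.04, and the other 4 pairs were higher at day 5. The mean change was 0.89, or 1.85-fold (SE 0.29, limma adjusted p = 0.355). By slide it was higher at day 5 on 5 of 5 slides, by 0.42 to 1.80, but with normexp background correction the change was 0.24. At days 2 and 30 the changes were 0.59 and 0.39, both higher in 4 of 5 pairs, with limma adjusted p-values of 0.519 and 0.586. Without replicate 5, whose pairs stood at 2.37 and 2.04, they were 0.15 and -0.03.

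IER2, a small nuclear protein of the early response, had the narrowest spread of the 9 genes. It lay between 6.12 and 6.67 before irradiation, 6.18 and 6.80 at day 2, 5.93 and 6.42 at day 5, and 6.24 and 6.88 at day 30. The mean changes were 0.06, -0.21 and 0.14, with limma adjusted p-values of 0.894, 0.662 and 0.757, and the direction turned at day 2 under quantile normalization and normexp, and at day 30 under normexp. Day 5 was below pre-irradiation in 4 of 5 pairs and on 5 of 5 slides. It was also below day 30 in 5 of 5 pairs, by 0.35 (SE 0.16, limma adjusted p = 0.596), or 0.17 with normexp.

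IER3, an early-response protein known for its effect on cell survival, was well above background on 4 of 5 arrays before irradiation and on all later ones. It lay between -2.94 and -1.31 before irradiation and between -3.08 and -1.69 at day 2, with a mean change of -0.02 (limma adjusted p = 0.976). At day 30 its levels were -0.70, -1.84, -1.53, -3.08 and -2.12. Replicate 1 was 2.24 above its pre-irradiation array, and 3 of 5 pairs were higher. The mean change of 0.52 (SE 0.37, limma adjusted p = 0.486) lay within the spread and was 0.09 without replicate 1. IER3 was higher at day 30 than at day 2 in 5 of 5 pairs (7.62% of all probes), by 0.54 (SE 0.34, limma adjusted p = 0.514), but this difference was 0.12 without replicate 1 and turned its sign under normexp.

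How far the arrays of 1 group differed was itself uneven among the genes. The standard deviation within groups was 0.90 for FOS, wider than 94.0% of all tested probes and than 97.4% of 501 probes of similar signal. It was 0.76 for ATF3, 0.72 for JUN, 0.69 for FOSB, 0.67 for IER3 and 0.58 for EGR2, against a median of 0.39 over all probes. JUNB stood at 0.49, EGR1 at 0.31 and IER2 at 0.22, narrower than all but 8.25% of probes. The members thus ran from among the most to among the least variable probes of this blood.

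FOS and JUN moved together from array to array. Over the 20 arrays their signals correlated at r = 0.88 (rho = 0.86), and at r = 0.88 after the mean of each group was removed. With the mean of each replicate number removed too, r was 0.78. Without the 2 arrays farthest from the median of FOS, day 30 replicates 1 and 3, it was 0.85 (n = 18). Without all arrays of replicate 3, which were low for both genes at 3 of 4 times, it was 0.78 (n = 16), and without another replicate number it lay between 0.86 and 0.90. Arrays of the same animal, slide or group are not independent, so no p-value is given.

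Among 12589 genes with a probe well above background on all 20 arrays, the other members left out, JUN ranked 12 by its correlation with FOS. The closest was DUSP1, a MAP kinase phosphatase that is itself an immediate-early gene, at r = 0.92 (rho = 0.91). CHST2, RASSF2, CXCR4 and IRS2 followed at r = 0.91, 0.91, 0.90 and 0.90, and 5% of all genes had an r above 0.67. In the reverse ranking FOS stood at 19 for JUN, whose closest were STK10, NSMAF, BTBD7 and HECA, at r = 0.92 to 0.90. These neighbours were listed after the values of FOS and JUN had been seen. FOS correlated at r = 0.64 with the neutrophil markers and at -0.59 with 8 erythroid markers, and JUN at 0.52 and -0.52.

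**Figure D4:**
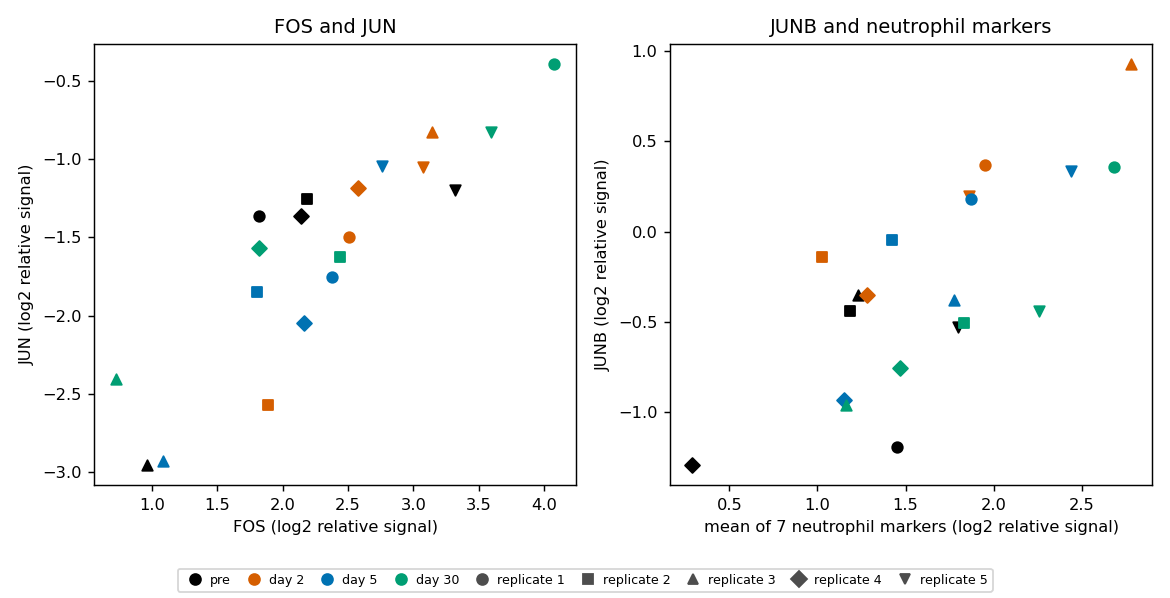
Signals on the 20 arrays (log2 relative to the 75th percentile of the array), with colours for groups and symbols for replicate numbers. Left, JUN (vertical) against FOS (horizontal), r = 0.88; right, JUNB (vertical) against the mean of 7 neutrophil markers (horizontal), r = 0.75.

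Of the 36 pairs among the 9 genes, the next highest correlations over the 20 arrays were those of JUNB with ATF3 at r = 0.58 and of FOS with JUNB at 0.48. With the means of groups and replicate numbers removed, JUNB came nearer to both, at r = 0.70 with FOS and 0.63 with JUN, while JUNB with ATF3 stood at 0.05. FOSB and JUN, whose probes share 13 bases, correlated at 0.29. FOS and EGR1, often induced together in cultured cells, correlated at 0.28 and FOS with IER2 at 0.06. The lowest value was -0.25, between JUN and EGR2.

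Against the cell markers, JUNB ran opposite to lymphocytes, at r = -0.71 with 8 T cell markers and -0.69 with 6 B cell markers, where FOS stood at -0.36 and -0.44. After the group means were removed JUNB still correlated at 0.82 with the neutrophil and 0.79 with the monocyte markers. For JUNB rho was 0.65 with neutrophil and 0.67 with monocyte markers over the 20 arrays. ATF3 correlated at 0.68 with monocyte and 0.40 with neutrophil markers, and IER3 at 0.59 with monocyte and -0.61 with platelet markers. EGR2 lay between -0.25 and 0.29 for all 8 marker lists. FOSB and EGR1 correlated at 0.58 and 0.52 with 5 basophil and eosinophil markers. With the share of spots well above background, r ran from -0.36 for JUN to 0.41 for FOSB.

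**Figure D5:**
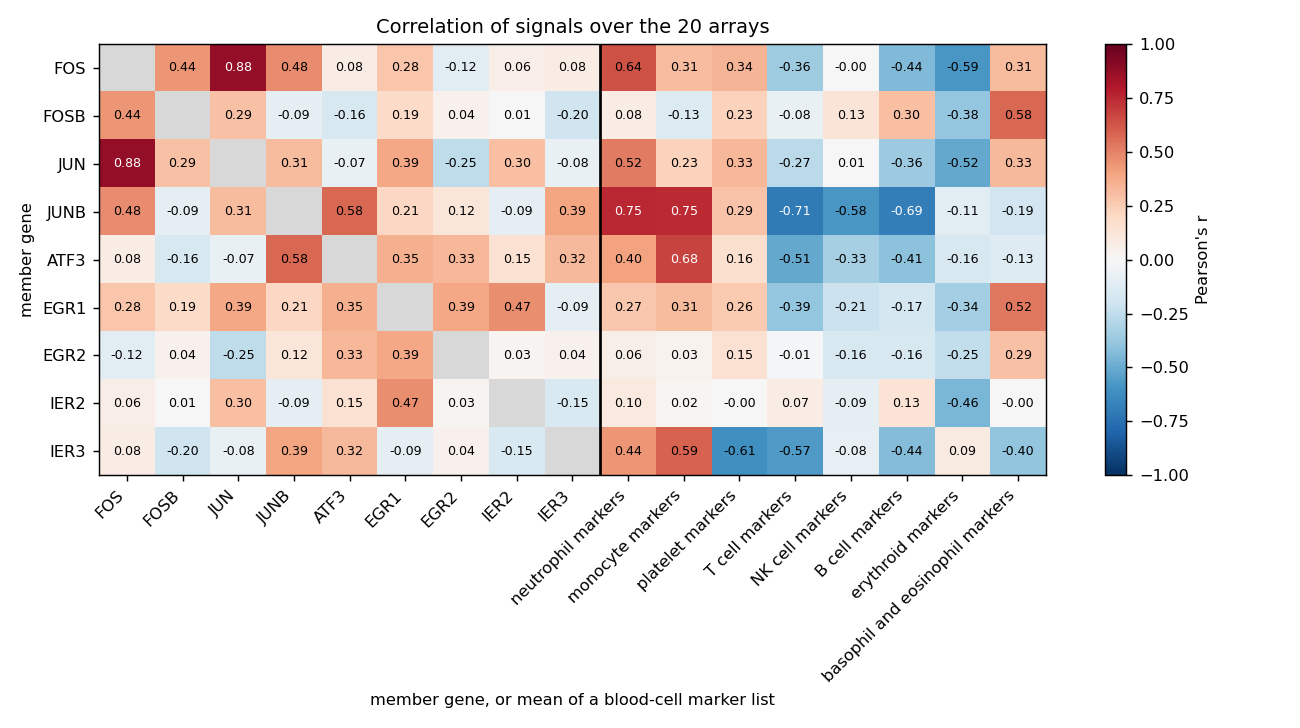
Pearson's r over the 20 arrays between each of the 9 genes (rows) and the other genes or the mean of each of 8 marker lists (columns); grey cells are a gene with itself. FOS with JUN at 0.88 is the highest value, and JUNB with monocyte and neutrophil markers at 0.75 the highest among the marker lists.

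The median of the 9 genes, each centred on its own mean, was highest on day 2 replicate 5 at 0.66 and lowest on pre-irradiation replicate 1 at -0.51. Of 12588 other genes measured on all 20 arrays, those closest to this course were ADPGK (r = 0.87), RAB5A (0.86), CD63 (0.86), TOR1AIP1 (0.86) and RAC1 (0.85), and 5% of genes exceeded 0.65. The 9 genes themselves were left out of this ranking beforehand. None of the 36 further immediate-early genes described next was among these 5.

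Of 36 further immediate-early genes, listed with earlier results of these data known, 33 were measured and none was called. Their median log2 change was 0.28 at day 2, 0.12 at day 5 and 0.32 at day 30, beside -0.02, 0.02 and 0.01 over all probes. At an unadjusted p under 0.05, 9 were higher and 3 lower at day 2 (8.91% and 5.92% of all probes), 6 and 0 at day 5 (7.20% and 4.15%), and 10 and 1 at day 30 (8.58% and 8.97%). From day 2 to day 5, 29 of 33 changes were below 0, with a median of -0.21, whereas 55.8% of all probes were above 0, with a median of 0.03.

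RHOB and CXCL2 had smaller limma p-values at day 2 than JUNB. RHOB, a small GTPase, stood at 1.17 (SE 0.21, limma adjusted p = 0.126) and CXCL2, a neutrophil chemokine, at 1.24 (SE 0.20, limma adjusted p = 0.114), each higher in 5 of 5 pairs. Being higher in every pair held for 6.50% of all probes at day 2, 7.00% at day 5 and 8.36% at day 30. The mean level of CXCL2 was low, -3.20 before irradiation and -1.96 at day 2, and its values under other background corrections are not given. PPP1R15A, which restores translation after stress, stood at 0.88 and ZFP36, which destabilizes mRNAs with AU-rich elements, at 0.80, both higher in 5 of 5 pairs. DUSP6, a phosphatase of ERK, was at 0.72, 0.63 and 0.78 at days 2, 5 and 30, higher in 5 of 5 pairs on each day. PTGS2, the inducible cyclooxygenase, was at 0.99, 0.78 and 1.04, from a low mean level of -2.31 before irradiation. SGK1, a serum-induced kinase, was at 0.99, 0.83 and 0.46. By day 30 CXCL2 and PPP1R15A were at 0.18 and 0.12. None of these adjusted p-values passed 10%.

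The 26 listed genes upstream of the immediate-early response, kinases of the MAP kinase cascades and the factors they activate, had medians of -0.04, -0.04 and 0.10 at days 2, 5 and 30, and none was called. ELK4, a partner of SRF, had the largest value, -0.96 at day 30 (SE 0.20, limma adjusted p = 0.129), lower in 5 of 5 pairs. Among 15 AP-1 partners and EGR co-regulators the medians were 0.12, 0.02 and 0.33, and again none was called. CEBPB, a myeloid transcription factor, was at 0.82 at day 2 and 0.68 at day 30, and DDIT3, a stress factor that pairs with C/EBP proteins, at 0.77 at day 2. NAB2, a corepressor of EGR1, was at -0.73 at day 5 (SE 0.15, limma adjusted p = 0.287), lower in 5 of 5 pairs. The shares of all probes lower in every pair at days 5 and 30 are not given here.

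Between the later days the members gave similar results. From day 2 to day 5 the median change of the 9 genes was -0.32, with 6 below 0, and 1 of 12 member probes was lower at an unadjusted p under 0.05 (1.63% of all probes), ATF3, and none higher (1.84%). From day 5 to day 30 it was 0.35, with 7 above 0 and 2 of 12 probes higher at that level (2.53% of all probes), ATF3 and JUN, and none lower (5.77%). From day 2 to day 30 it was -0.11, with 1 of 12 probes lower (6.95% of all probes), JUNB, and none higher (6.03%).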

How the data were processed

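The authors deposited the scanner output of each array, with processed signal intensity as background-subtracted, spatially detrended brightness that is not scaled between arrays (Feature Extraction version 12.0.2.2 per the file headers, design coordinates on hg19), and a table of log2 values for 5884 probes. At least 97.0% of the deposited log2 values of each array differed from the log2 of the processed signal by a single constant for that array, to within 0.001; the scale is therefore log2 and the direction that of the signal, while the reason for the choice of probes is unknown.

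From the processed intensities, spots flagged by the scanner software for non-uniformity or as outliers of their population were dropped (0.619% to 1.12% of an array), spots of 1 probe were averaged as log2 values, and the 75th percentile over non-control probes of each array was subtracted. Probes well above background on at least 5 arrays, with at least 4 pairs, were tested in limma 3.58.1 (R 4.3.3) on the arrays of the groups compared, blocked by replicate number. The study's methods state comparisons paired by animal with these thresholds, and the labels number the replicates without naming animals. The study reported far more genes at each later day than this fit called probes, and the reason was not tested. The deviations of same-numbered arrays from their group means correlated at -0.162 to 0.654, over 0.1 in 25 of 30 pairs. The lowest were those of replicate 3 between days 2 and 30 (-0.162) and between days 2 and 5 (0.024). P-values measure the spread between these arrays, whose number limits the precision, and no count depth applies. The fit was also run on simulated data with independent noise and no shared effect of replicate or slide. How well it recovers changes of the size seen in the members is not given here.

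The 9 members, the gene lists and the markers were chosen with earlier results of these data known. Named were all members, genes of the lists with p under 0.005 in at least 1 of 6 comparisons by their brightest probe, and the 5 other genes closest to the members' median course among genes detected on each of the 20 arrays. The neighbours of FOS and JUN were added after their values were seen. Not every gene that met these rules is reported here. All 9 symbols occur in the rhesus gene table of RefSeq. The alternatives were quantile and median scaling, normexp background correction (offset 50), 2 other filters, outlier spots kept, the deposited log2 values, no block, all 20 arrays in a single fit with and without the slide, an intensity trend, paired tests without pooled spread, an FDR under 5% and each replicate left out. Pairing by slide, leaving out day 5 replicate 3 and a percentile over spots were chosen after seeing the data.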

Additional observations from a re-analysis of the deposited data

Results flagged for a closer look

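Of 48 groups of 5 arrays (12 probes in 4 groups), 3 held an array whose distance from its nearest neighbour took up more of the range than Dixon's 95% limit of 0.71 allows; chance gives about 5% of groups. All 3 were the array of replicate 3 before irradiation. JUN stood at -2.95 on it, against -1.37 to -1.19 on the other 4. IER3 stood at -1.31, against -2.94 to -2.48, and the ATF3 probe A_33_P3214105 at -0.27, against -2.10 to -1.60. The array had 55.4% of its spots well above background, within the range of the others.

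The IER3 probe A_33_P3423551 was left out of the comparisons because it was well above background on 2 of 20 arrays. Those arrays were day 5 replicate 3, at -2.94, and day 30 replicate 1, at -2.77, while the 5 arrays before irradiation lay between -5.56 and -4.04 with none well above background. Day 30 replicate 1 was also the highest array of the IER3 lead probe, at -0.70.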

How the results depend on the processing

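Of the counts of member probes called, those of 5 comparisons stayed at 0 under every alternative run. From pre-irradiation to day 2, 1 probe, JUNB, was called with probes well above background on all 20 arrays (limma adjusted p = 0.0853, 8 member probes left). It was also called with an intensity trend (0.0921) and with the deposited log2 values (0.0652, over 5653 probes). The choice of the deposited probes is unknown, so their FDR is not comparable with the main one. Leaving out 1 replicate gave 0 to 1 member probes called, the 1 being JUNB without replicate 2 at a log2 change of 1.13. Over all probes, the alternatives called from 0 to 681 at day 2, against 11 of 19961 in the main analysis. The share of all probes called in each setting that called JUNB is not given here. Without the replicate block, 0 member probes were called in every comparison, so the pairing changed no member's call. The limma p of JUNB at day 2 was then 0.0048 (adjusted p = 0.410). Over all alternatives the JUNB change at day 2 lay between 0.55 and 1.13 and its adjusted p between 0.0634 and 0.442.

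The median change of the 9 members from day 2 to day 30 lay between -0.22 and 0.16 when 1 replicate was left out, above 0 without replicate 3 or 4, and -0.11 with all. At day 5 the median turned to -0.04 with probes well above background on all 20 arrays, which left 6 members. Median scaling moved the median of all probes at day 5 to -0.11, where the median of the members was 0.03. Normexp moved it at days 2 and 30 to 0.13 and 0.11, where the members stood at 0.38 and 0.28. The counts over all probes were less stable, from 0 to 681 at day 2, 0 to 9 at day 5 and 0 to 902 at day 30; the cause was not tested. Signal over background limits FOSB, EGR2, IER3 and ATF3 A_24_P33895, which were not well above background on every array.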
